A study of Mus musculus with 12 samples.

Results

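The extracellular metalloproteinases and their inhibitors were followed in C2C12 cells with and without silencing of Bach1, before and during differentiation. Members were all array probes whose gene symbol was Mmp, Adam or Adamts followed by a number, or Timp1 to Timp4. The rule took 79 of the 27306 genes with a symbol, carried by 153 probes. To be tested, a probe had to stand well above background throughout the 3 arrays of 1 condition or more. That left 63 probes of 42 member genes, out of 29664 probes tested on the whole array.

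C2C12 is a myoblast line from C3H mouse muscle that fuses into myotubes in low serum. Cells received a control siRNA (siControl) or an siRNA against Bach1 (siBach1). They were confluent 24 hours after transfection, when the medium was changed to DMEM with 2% horse serum. RNA was taken at day 0 and at day 2 of differentiation, which gave 4 conditions of 3 arrays each, 12 arrays in all. All cells were of this 1 line, and the labels name 1 siRNA against Bach1, so that silencing of Bach1 and any other effect of that siRNA cannot be told apart. The labels do not say that the 3 replicates were separate cultures, and the p-values measure the spread between these samples. RNA came from whole cultures, where fewer cells of a type and less RNA per cell cannot be told apart.

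Matrix metalloproteinases are zinc enzymes that are secreted or membrane-anchored and cleave collagens, gelatin, laminin and other matrix proteins. The Adam proteins are membrane-anchored relatives that mostly shed the outer part of other membrane proteins, and the Adamts proteins are secreted relatives that cut proteoglycans, process procollagens or act on microfibrils. The Timp proteins bind the active sites of these enzymes and block them. In muscle, remodelling of the matrix accompanies the fusion of myoblasts and repair after injury, and Adam12 and Adam19 are also known as meltrins of myoblasts. Bach1 is a repressor that pairs with small Maf proteins on DNA elements overlapping the AP-1 site.

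Bach1 itself, on probe A_55_P2014337, was at levels of 1.73, 1.55 and 1.78 on the siControl arrays of day 0 and 0.18, -0.22 and -0.22 on the siBach1 arrays. Levels here are log2 values of the processed signal relative to the 75th percentile of the array, which is 0. At day 2 they were 2.56, 2.55 and 2.58 against 0.57, 0.56 and 0.65. The siBach1 groups lay below the siControl groups without overlap, by -1.77 (SE 0.11, adjusted p = 1.2e-05) at day 0 and -1.97 (SE 0.11, adjusted p = 1.4e-05) at day 2, in one limma fit over all 12 arrays with Benjamini-Hochberg adjustment over all 29664 probes. All log2 fold changes and adjusted p-values come from that fit, and a probe passed at an adjusted p under 0.05.

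Each array had 47.6% to 58.9% of its probes well above background and no saturated spot. Of the myoblast and myotube markers (Myod1, Myog, Myh3, Ckm, Acta1 and others) 11 of 12 probes rose with differentiation in siControl cells, with a median log2 fold change of 5.09. Of 6 endothelial probes 1, that of Pecam1, was well above background on any array. Of 5 epithelial probes 3, those of Krt8 and Cdh1, were tested, and none of Epcam or Krt18 was. Replicates 1 and 2 of each condition were on 1 slide and replicate 3 on another. Each condition kept its own column of the slide, so that position and condition cannot be told apart.

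Of the families, 13 of 33 Mmp probes, 6 of 9 Timp probes, 23 of 62 Adam probes and 21 of 49 Adamts probes were tested. All 4 Timp genes had a tested probe, as did 12 of 23 Mmp, 15 of 33 Adam and 11 of 19 Adamts genes. Of the 153 probes, 63 were not well above background on any array. The Adam genes known mainly from testis and the reproductive tract made up 19 of these, and 5 of their 30 probes were tested. Among the matrix metalloproteinases, no probe of Mmp9 (gelatinase B), Mmp13 (collagenase), Mmp7 (matrilysin) or Mmp12 (metalloelastase) was tested. Of the 63 tested probes, 41 stood well above background throughout the 12 arrays and 22 fell short on at least 1, several of them dim at day 0 and bright at day 2.

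A promoter window, from 250 bases before to 50 bases after the annotated gene start, was given by RefSeq (build GRCm38.p6) for 24 of the 42 tested member genes. It was searched on both strands for TGAGTCA (the AP-1 site), for GCTGAGTCA and GCTGACTCA (AP-1 sites extended as in the elements of Bach1 and Maf) and for TGACNNNGC (the core of the antioxidant response element). Each extended site contains an AP-1 site. TGAGTCA occurred in the windows of Mmp3, Mmp10 and Adam19, 3 of 24, and in 5.95% of all 27025 genes with a window. GCTGACTCA occurred for Adam19 alone (0.48% of all genes) and GCTGAGTCA for no member (0.5% of all genes). TGACNNNGC occurred for Adamts2, Mmp15, Timp2 and Timp4, 4 of 24, and in 13.99% of all genes. These are matches of letters and not sites shown to be bound. The windows of the 2 stromelysins of one gene cluster that moved in opposite directions with differentiation, of Mmp15, which was raised at day 0, and of Adam19, which was lower at both days, are shown 5′ to 3′ with the matches in capitals. The AP-1 match begins 63 bases before the start of Mmp10, 46 before that of Mmp3 and 131 before that of Adam19, and the TGACNNNGC match 156 before that of Mmp15.
Mmp10, chr9:7502092-7502391, plus strand: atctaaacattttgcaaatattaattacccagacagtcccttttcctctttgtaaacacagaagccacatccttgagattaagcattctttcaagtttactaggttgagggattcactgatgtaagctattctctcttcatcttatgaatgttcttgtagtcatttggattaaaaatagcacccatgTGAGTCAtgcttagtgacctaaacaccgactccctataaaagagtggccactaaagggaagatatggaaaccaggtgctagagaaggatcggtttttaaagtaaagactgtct
Mmp3, chr9:7445572-7445871, plus strand: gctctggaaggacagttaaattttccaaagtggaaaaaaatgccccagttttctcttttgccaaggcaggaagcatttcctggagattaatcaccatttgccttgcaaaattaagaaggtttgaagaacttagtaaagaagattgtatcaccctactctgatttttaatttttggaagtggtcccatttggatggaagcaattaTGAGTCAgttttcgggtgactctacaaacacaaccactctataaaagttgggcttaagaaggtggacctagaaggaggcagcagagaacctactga
Mmp15, chr8:95352046-95352345, plus strand: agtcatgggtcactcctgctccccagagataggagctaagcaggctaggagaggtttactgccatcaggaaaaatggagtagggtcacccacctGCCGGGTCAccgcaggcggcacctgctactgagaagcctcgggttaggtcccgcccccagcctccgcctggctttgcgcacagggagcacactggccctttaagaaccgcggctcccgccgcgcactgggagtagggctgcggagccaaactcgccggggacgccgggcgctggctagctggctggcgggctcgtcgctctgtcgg
Adam19, chr11:46055734-46056033, plus strand: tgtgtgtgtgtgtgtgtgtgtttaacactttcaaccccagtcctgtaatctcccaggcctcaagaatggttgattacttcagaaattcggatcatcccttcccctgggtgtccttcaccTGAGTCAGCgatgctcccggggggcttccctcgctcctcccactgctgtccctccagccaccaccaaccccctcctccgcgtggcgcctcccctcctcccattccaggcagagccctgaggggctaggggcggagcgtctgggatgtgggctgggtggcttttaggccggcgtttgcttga

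Before differentiation, silencing of Bach1 raised the membrane metalloproteinase Mmp15 and the sheddase Adam9 and lowered the stromelysin Mmp10 and the inhibitor Timp3. At day 0, 4 of the 63 member probes were higher and 11 were lower in siBach1 than in siControl cells. Over all tested probes, 8.8% were higher and 8.32% lower, against 6.35% and 17.5% of the members. On the 41 member probes seen above background on every array, 4 were higher and 8 lower, where 9.72% and 8.82% of all such probes were. With a change of at least 2-fold as well, 4 member probes passed, where 2.79% of all tested probes did so. The median log2 fold change of the members was 0.07, and that of all tested probes was 0.09.

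Mmp15 (membrane-type 2 matrix metalloproteinase) had levels of -2.10, -2.22 and -2.25 in siControl cells at day 0 and -0.85, -1.05 and -0.92 in siBach1 cells. The siBach1 arrays were all higher, by 1.25 (SE 0.10, adjusted p = 3.2e-05), or 2.38-fold. Mmp10 (stromelysin-2), a secreted enzyme with a broad range of matrix substrates, was at -2.39, -2.20 and -2.22 in siControl and -3.54, -3.67 and -3.68 in siBach1 cells. The siBach1 arrays were all lower, with a change of -1.36 (SE 0.13, adjusted p = 9.6e-05). It was -0.55 (adjusted p = 0.00085) after another background correction, normexp, which adds an offset of 50 to every signal. The other tested Mmp probes did not pass at day 0.

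Among the inhibitors, Timp3, which is held in the matrix and also blocks Adam17 and the aggrecanases, was lower on both of its tested probes at day 0. Probe A_51_P463765 read 5.16, 5.08 and 5.30 in siControl and 4.18, 4.17 and 4.25 in siBach1 cells, a change of -0.98 (SE 0.13, adjusted p = 0.0007). Probe A_55_P2865447 read 3.73, 3.64 and 4.19 against 2.87, 2.65 and 3.44, a change of -0.86 (SE 0.23, adjusted p = 0.027). On neither probe did the groups overlap. The second call was lost without any of 4 arrays in turn, namely replicate 1 or 3 of siControl day 0 and replicate 1 or 2 of siBach1 day 0. Timp1, Timp2 and Timp4 did not pass, with values of 0.07 for Timp1, 0.06 and 0.29 for the Timp2 probes and 0.66 for Timp4, although the second Timp2 probe (A_65_P12392) passed with the replicate number as a block (adjusted p = 0.027).

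Of the Adam genes, Adam9 (meltrin gamma) and Adam8, a protease best known from leukocytes, were higher at day 0. Adam9 read 3.24, 3.33 and 2.99 in siControl and 4.29, 4.11 and 4.50 in siBach1 cells, and every siBach1 array was higher, by 1.11 (SE 0.14, adjusted p = 0.00054), or 2.16-fold. Adam8 rose by 0.64 (SE 0.12, adjusted p = 0.0049) on probe A_55_P2025765, while its second probe gave 0.79 (SE 0.25, adjusted p = 0.052). Of the 6 tested probes of leukocyte and macrophage markers, both of Cd68 were lower in siBach1 cells at day 0 (-0.95, adjusted p = 0.0022, and -0.48, adjusted p = 0.018) and the other 4 did not pass. Adam10, the sheddase of Notch receptors, was lower, with a change of -0.57 (adjusted p = 0.003) on probe A_55_P1967216 and gave -0.33 (adjusted p = 0.11) on A_66_P124299. Adam19 (meltrin beta) was lower, with a change of -0.67 (SE 0.10, adjusted p = 0.0011). Adam17, the TNF-alpha convertase, was lower, with a change of -0.33 (adjusted p = 0.037) on probe A_52_P734595. That call was lost without replicate 1 or 2 of siControl day 0, replicate 1 or 3 of siBach1 day 0, replicate 1 of siControl day 2, or replicate 1 or 2 of siBach1 day 2, and under quantile scaling or normexp. Its other probes gave -0.27 and 0.00, neither of which passed.

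Among the Adamts genes at day 0, the aggrecanase Adamts5 was higher by 0.96 (SE 0.18, adjusted p = 0.0048) on probe A_55_P1970826. Its levels there were -3.03, -3.08 and -3.08 against -2.38, -2.13 and -1.78, and the change was 0.55 after normexp (adjusted p = 0.035). The other 2 Adamts5 probes did not pass, and neither was well above background on any siControl array of day 0. Lower were Adamts7, which degrades cartilage oligomeric matrix protein (-0.76, adjusted p = 0.0015), both probes of the procollagen N-proteinase Adamts14 (-0.41, adjusted p = 0.0057, and -0.47, adjusted p = 0.006), and 2 of 3 probes of Adamts6 (-1.08, adjusted p = 0.009, and -0.52, adjusted p = 0.038). The second Adamts6 call was lost without any 1 of the 6 day 0 arrays except replicate 2 of siControl, and without replicate 1 of siControl or replicate 2 of siBach1 of day 2. On the probe of that call 1 of 3 siBach1 arrays of day 0 was well above background, so that -0.52 is no exact change. The Adamts6 changes shrank to -0.18 and -0.02 after normexp and did not pass. Other markers moved at day 0 too. Of the 12 myoblast and myotube probes 1, that of Cdh15, passed and was higher in siBach1 cells (0.45, adjusted p = 0.0051). Both tested Krt8 probes of the epithelial list were higher in siBach1 cells, as was the Cdh1 probe, which was not well above background on any day 0 array. The summed linear level of that list was 0.115 to 0.144 in siControl and 0.289 to 0.436 in siBach1 cells. The part of these markers in the results was not tested.

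**Figure D1:**
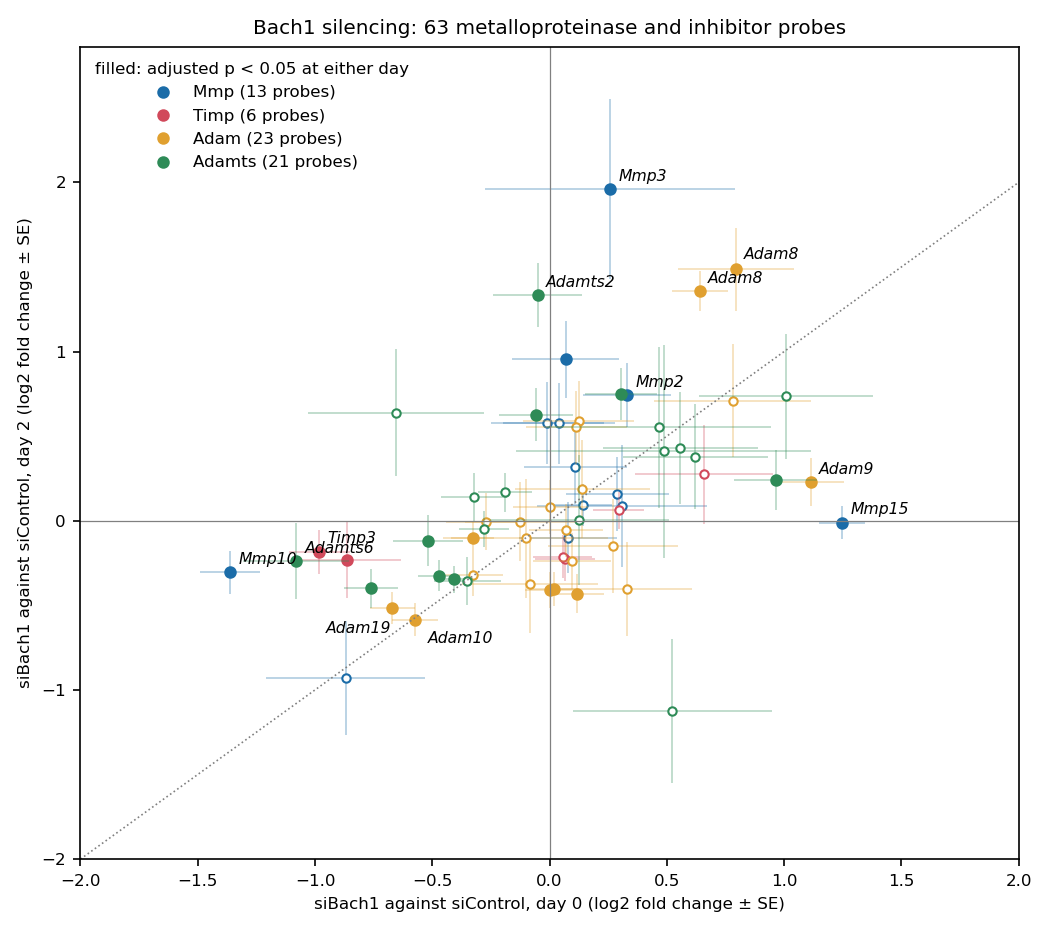
Log2 fold change of siBach1 against siControl at day 0 (x axis) and day 2 (y axis) for the 63 tested member probes, with standard errors; filled points passed at either day and the dotted line marks equal change. Mmp15 and Adam9 lie far right near 0 on the y axis, Mmp10 and Timp3 far left near 0, Adamts2 and Mmp3 high near 0 on the x axis, and Adam8 at upper right, while Adam10 and Adam19 sit close to the line.

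At day 2 the stromelysin Mmp3, the sheddase Adam8, the procollagen N-proteinase Adamts2 and the gelatinase Mmp2 were higher in siBach1 cells, and Adam10, Adam15, Adam19 and Adamts14 were lower. In all, 8 of the 63 member probes were higher and 7 were lower. Of all tested probes 5.75% were higher and 6.26% lower, against 12.7% and 11.1% of the members. On the 41 member probes seen above background on every array, 5 were higher and 7 lower, where 5.45% and 6.93% of all such probes were. Mmp3 and 1 probe of Mmp19 passed the filter only through the siBach1 arrays of day 2, the group in which they were higher. With at least a 2-fold change, 4 member probes passed, all of them higher, namely both of Adam8, Mmp3 and Adamts2 probe A_52_P184042. Of all tested probes 2.17% passed in either direction, 452 of them higher and 193 lower. The median of the members was 0.01 and that of all tested probes was -0.01. Other markers moved in the same comparison, as Myog (-0.98, adjusted p = 0.016), Myod1 (-0.48, adjusted p = 0.036) and Ly6a (-0.75, adjusted p = 0.0019) were lower and Pdgfra was higher (0.51, adjusted p = 0.028) in siBach1 cells. Their part in the changes of the members was not tested.

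Mmp3 (stromelysin-1) read -4.07, -3.69 and -5.68 in siControl cells of day 2 and -1.95, -3.28 and -2.33 in siBach1 cells. The groups did not overlap, and the change was 1.96 (SE 0.53, adjusted p = 0.04), with 2 of 3 siControl arrays well above background. The call was lost without replicate 1 or 3 of either day 2 group and without replicate 2 of either day 0 group. Within slide 1 the value was 1.27 and did not pass (adjusted p = 0.14), and on the arrays of slide 2 the difference was 3.34. After normexp the change was 0.54 (adjusted p = 0.039). Mmp2 (gelatinase A), which cleaves denatured collagen and collagen IV, read 2.21, 2.10 and 2.00 against 3.15, 2.44 and 2.95, higher on every siBach1 array, by 0.74 (SE 0.19, adjusted p = 0.031). That call was lost without any of 5 of the 6 day 2 arrays in turn, the exception being replicate 2 of siBach1, and with each array scaled to its median. Mmp19 was higher by 0.95 (adjusted p = 0.024) on the dim probe A_66_P130161 and gave 0.58 (adjusted p = 0.15) on A_55_P2495403. The change of the dim probe fell to 0.14 after normexp background correction, and its call was lost without any of 5 of the 6 day 2 arrays in turn, siControl replicate 2 being the exception.

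The level of Mmp14, the membrane enzyme that activates Mmp2 together with Timp2, was 1.25, 1.38 and 1.39 in siControl and 0.51, 0.32 and 0.41 in siBach1 cells of day 2. The groups did not overlap and the difference was -0.93 (SE 0.34), but it did not pass (adjusted p = 0.11). The spread was widest in siBach1 day 0, where the arrays read 0.86, -0.64 and -0.79. Without replicate 1 of siBach1 day 0 the same difference passed (adjusted p = 0.00046), as it did when the fit held the day 2 arrays alone (adjusted p = 0.0078). At day 0 the difference was -0.87 (adjusted p = 0.11), and -1.40 (adjusted p = 4.9e-05) without that array. The array was singled out by its own reading, so that the passes without it are no independent result. At day 0 the difference passed with no other single array left out.

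Adam8 was higher on both of its probes at day 2, and the siBach1 and siControl arrays did not overlap on either. Probe A_55_P2025765 read 1.33, 1.58 and 1.72 in siControl and 2.82, 2.96 and 2.92 in siBach1 cells, a difference of 1.36 (SE 0.12, adjusted p = 0.00017), or 2.56-fold. Probe A_55_P2736435 gave 1.49 (SE 0.25, adjusted p = 0.0047), or 0.70 after normexp (adjusted p = 0.008). The 6 tested probes of leukocyte and macrophage markers had adjusted p-values from 0.18 to 0.81 in the same comparison, and their summed linear level was 26.2 to 34.9 in siControl and 21.8 to 33.6 in siBach1 cells. Adam10 (A_55_P1967216) was lower, with a change of -0.59 (SE 0.10, adjusted p = 0.0047) and Adam19 at -0.52 (SE 0.10, adjusted p = 0.0078), close to their values at day 0. The Adam10 probe A_66_P124299 gave -0.32 and did not pass (adjusted p = 0.13). All 3 probes of Adam15 (metargidin) were lower, with changes of -0.40 to -0.43, with adjusted p-values from 0.031 to 0.038. Each of those calls was lost without any 1 siControl array of day 2 and without replicate 1 or 2 of siBach1 day 2, and 2 of the 3 also under quantile scaling. Timp1 gave -0.23 (adjusted p = 0.29), and passed with the replicate number as a block (adjusted p = 0.028).

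Adamts2, the main N-proteinase of fibrillar procollagens, was higher at day 2 on 2 of its 3 probes. Probe A_52_P184042 read -2.90, -2.98 and -3.30 in siControl and -1.61, -1.92 and -1.64 in siBach1 cells, a difference of 1.34 (SE 0.19, adjusted p = 0.0022), or 0.65 after normexp (adjusted p = 0.0012). Probe A_51_P227222 read 3.52, 3.65 and 3.42 against 4.30, 4.04 and 4.50, a difference of 0.75 (SE 0.15, adjusted p = 0.013). Probe A_52_P510592 gave 0.41 and did not pass. Adamts14, which acts on the same step of collagen maturation, was lower on both probes (-0.35, adjusted p = 0.018, and -0.32, adjusted p = 0.045). The first of these calls was lost without replicate 3 of siControl or replicate 1 of siBach1 of day 2, and the second without any 1 array other than replicate 1 of siControl day 2 or replicate 3 of siBach1 day 0, and both were lost under quantile scaling. The aggrecanase Adamts4 was higher by 0.63 (adjusted p = 0.03) on probe A_65_P19863 and gave 0.17 and 0.64, neither of which passed, on the other 2. Its call was lost without replicate 2 of siControl or replicate 1 or 3 of siBach1 of day 2, and with each array scaled to its median.

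**Figure D2:**
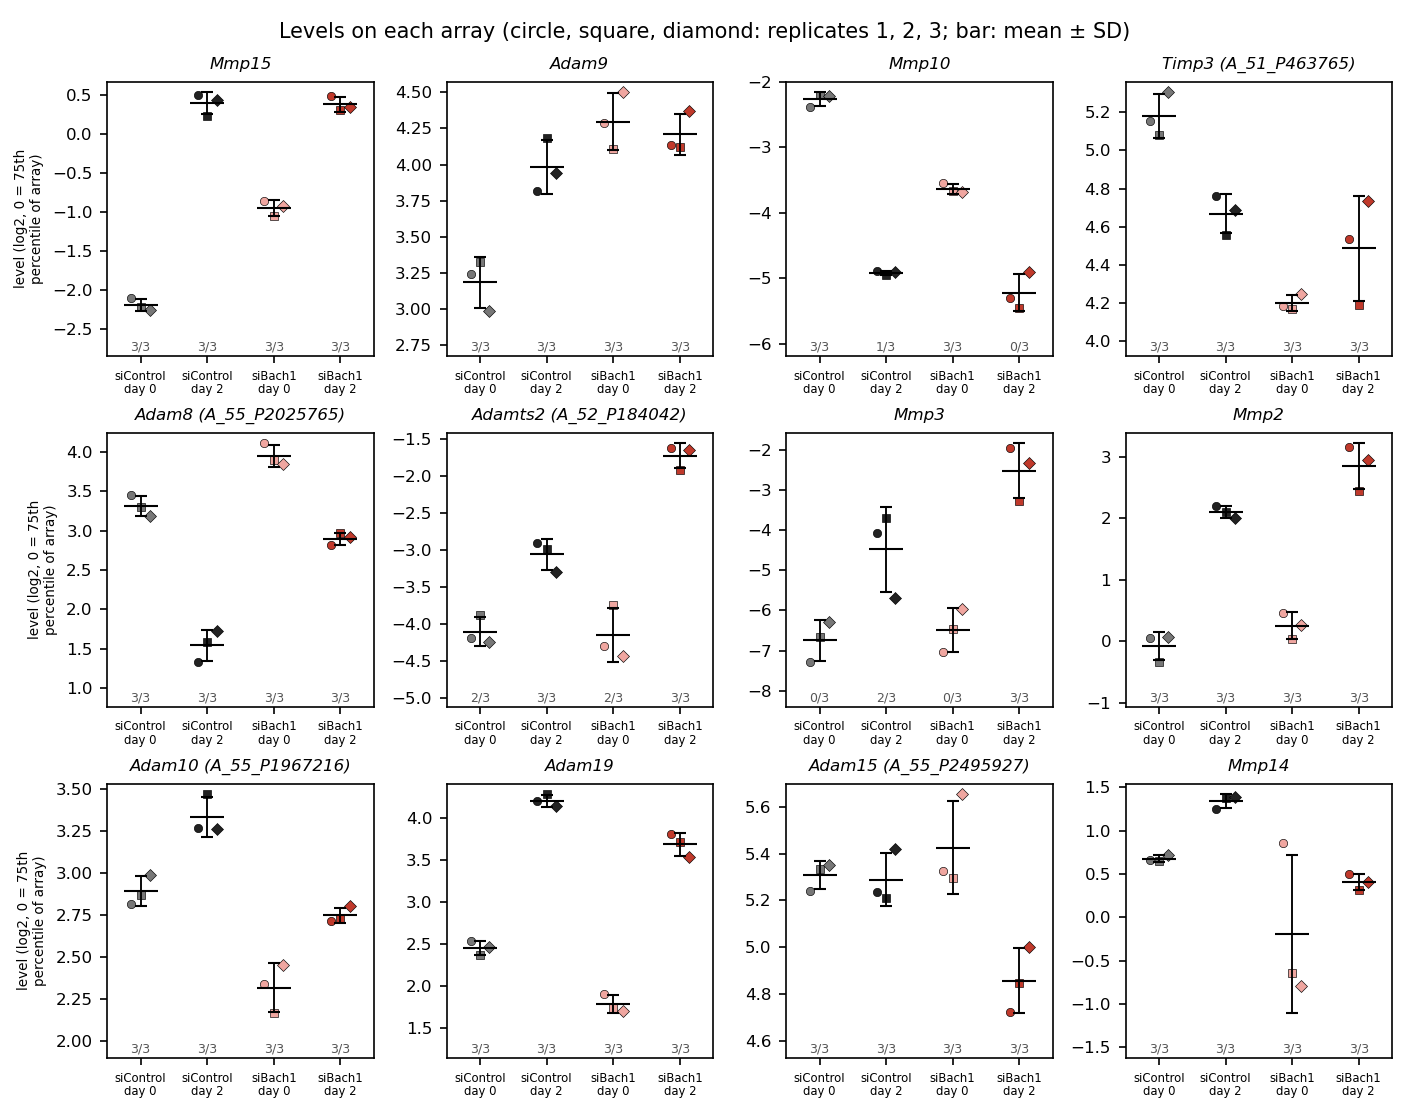
Levels of 12 member probes (y axes, log2 of the processed signal, 0 at the 75th percentile of the array, each panel on its own scale) in the 4 conditions; circles, squares and diamonds are replicates 1, 2 and 3, bars give mean ± SD, and the fractions count arrays well above background. The siBach1 arrays of Mmp15 and Adam9 are higher at day 0 alone, those of Adam10 and Adam19 lower at both days, and those of Mmp14 spread widely at day 0.

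The effect of silencing differed between the days for 6 member probes by the test of the difference itself, 4 with a higher and 2 with a lower effect at day 2. Of all tested probes 2.39% passed as higher and 2.2% as lower, and 1.44% passed with at least a 2-fold difference, as did 3 members. For Mmp15 the effect went from 1.25 at day 0 to -0.01 at day 2, a difference of -1.26 (SE 0.14, adjusted p = 0.0045). For Adam9 it went from 1.11 to 0.23, a difference of -0.89 (SE 0.20, adjusted p = 0.037). Both genes were higher in siBach1 cells before differentiation, and at day 2 their arrays overlapped with those of siControl cells.

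Mmp10 and Timp3 moved the other way. The fitted effect on Mmp10 went from -1.36 to -0.31 (difference 1.05, SE 0.18, adjusted p = 0.015), and the second value is not a measured fold, with 1 of 3 siControl and 0 of 3 siBach1 arrays well above background at day 2. That on Timp3 went from -0.98 to -0.18 on probe A_51_P463765 (difference 0.80, SE 0.18, adjusted p = 0.039). Adamts2 was raised at day 2 alone on probe A_52_P184042 (from -0.05 to 1.34, difference 1.39, SE 0.27, adjusted p = 0.021), and its probe A_51_P227222 gave a difference of 0.44 (adjusted p = 0.27). The third Adamts2 probe, A_52_P510592, gave -0.075 (adjusted p = 0.98). Adam8 was raised further at day 2 on probe A_55_P2025765 (from 0.64 to 1.36, difference 0.72, SE 0.17, adjusted p = 0.042). Its probe A_55_P2736435 gave 0.69 and did not pass (adjusted p = 0.28). For Adam10 and Adam19 the difference between the days was -0.01 (SE 0.14, adjusted p = 0.97) and 0.15 (SE 0.14, adjusted p = 0.57). Of 31 tested marker probes, that of Cdh15 (-0.71, adjusted p = 0.014) and 1 of Cd68 (1.29, adjusted p = 0.013) passed in the same test. The part of these markers was not tested. The Mmp15 call held under every setting other than the fit of slide 1 alone. Mmp10 kept its call without any single array, but lost it with each array scaled to its median, without a filter on dim probes, with another prior for the spread, and after normexp, which gave 0.33 (adjusted p = 0.12). The Adamts2 call was lost after normexp (0.51, adjusted p = 0.05), those of Adam8, Adam9 and Timp3 with median scaling, that of Adam9 with quantile scaling, and all 4 of these without a filter. The second Timp3 probe gave 0.63 (adjusted p = 0.29) and passed with the replicate number as a block (adjusted p = 0.019). The Adamts2 call was lost without replicate 2 of siControl day 0 or replicate 1 of siBach1 day 2. The Timp3 call was lost without any 1 array other than replicate 2 of siBach1 day 2, that of Adam8 without any other than replicate 3 of siControl day 2 or replicate 1 of siBach1 day 0, and that of Adam9 without any other than replicate 2 of siBach1 day 0 or replicate 3 of siBach1 day 2. None of the 6 calls held when only the 8 arrays of slide 1 were fitted, with adjusted p-values from 0.067 for Mmp15 to 0.13 for Timp3. On the arrays of slide 2 all 6 differences had the same sign. Those arrays were part of the fit that made the calls, so that this is no separate test.

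Differentiation moved many more members than silencing did, as it did over all tested probes. From day 0 to day 2 in siControl cells, 31 member probes rose and 8 fell, where 24.6% of all tested probes rose and 28.7% fell, against 49.2% and 12.7% of the members. In siBach1 cells 32 rose and 10 fell, where 23.8% of all tested probes rose and 32.3% fell, against 50.8% and 15.9% of the members. With at least a 2-fold change, 24 member probes passed in siControl cells (21 up and 3 down, background 20%) and 28 in siBach1 cells (25 up and 3 down, background 20.5%). The median member changed by 0.54 in siControl and 0.53 in siBach1 cells, and the median of all tested probes by 0.00 and -0.07. The filter favoured a rise in probes that passed it only through day 2, so the 41 members seen above background on every array were counted apart. Of those, 21 rose and 6 fell in siControl cells, with a median of 0.64 where all 24802 such probes had -0.04, and 23.5% and 31.5% of all such probes rose and fell. In siBach1 cells 20 of them rose and 8 fell, with a median of 0.40 against -0.12, where 21.7% and 36.2% of all such probes rose and fell. The siControl and siBach1 comparisons use different arrays, but each shares its arrays with the silencing comparisons.

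**Figure D3:**
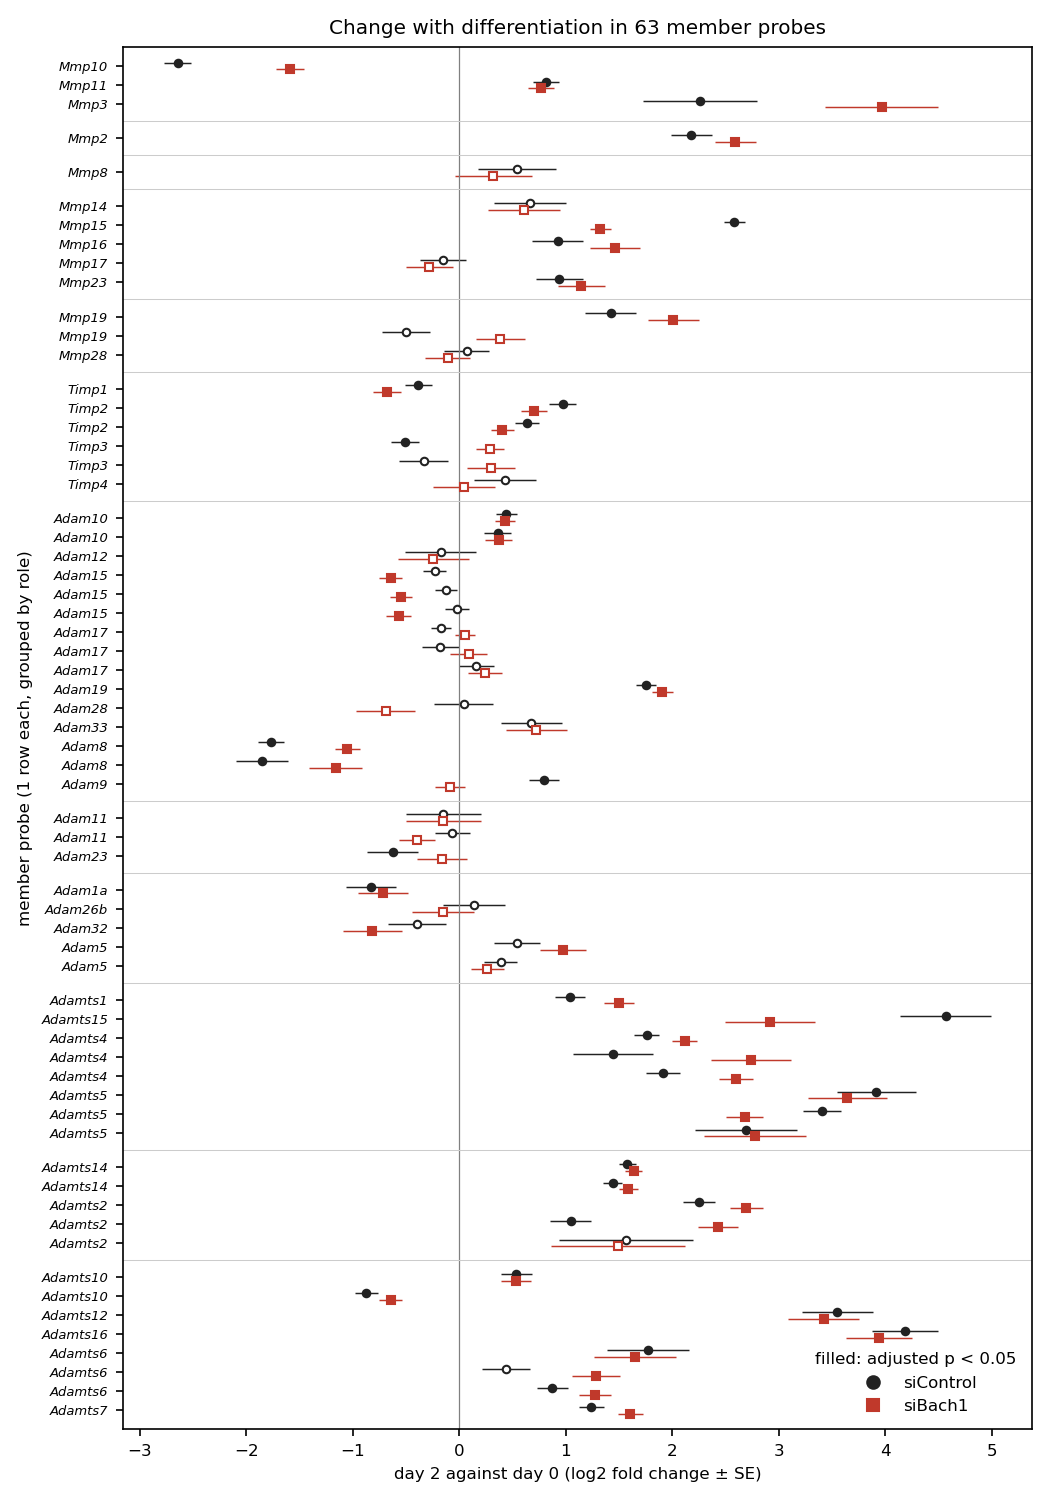
Log2 fold change of day 2 against day 0 with its standard error (x axis) for each of the 63 tested member probes (rows, grouped by role from stromelysins at the top to other Adamts at the bottom), in siControl (black circles) and siBach1 cells (red squares); filled points passed. Nearly all Adamts rows and that of Adam19 lie right of 0, and Mmp10 and Adam8 lie left of 0. The other widely expressed Adam rows lie nearer 0 than those of Adam8 and Adam19.

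The Adamts family made up 18 of the 31 probes that rose in siControl cells. Of its 21 tested probes 18 rose and 1 fell there, with a median of 1.58, and in siBach1 cells 19 rose and 1 fell, with a median of 2.12. Of these probes 11 were not well above background on some day 0 array, and the filter favoured a rise in those that passed it only through day 2. On the 10 Adamts probes seen above background on every array, 9 rose by at least 2-fold and 1 fell in each cell group, with medians of 1.51 and 1.88. All 8 tested probes of the proteoglycan-cleaving Adamts1, Adamts4, Adamts5 and Adamts15 rose in both cell groups, 5 of them seen above background on every array. With each array scaled to its median, which set the median of all probes at -0.18 and -0.31, 18 probes rose in each cell group and the family medians were 1.39 and 1.88. After normexp background correction 20 and 17 rose, and the family medians were 1.18 and 1.31.

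Adamts5 rose on all 3 of its probes. Probe A_55_P1970826 read -3.03, -3.08 and -3.08 at day 0 and 0.38, 0.65 and -0.01 at day 2 of siControl cells, a rise of 3.40 (SE 0.18, adjusted p = 2.1e-07), or 10.6-fold. In siBach1 cells it went from -2.38, -2.13 and -1.78 to 0.56, 0.50 and 0.68, a rise of 2.68 (adjusted p = 9.6e-07). On probe A_52_P70231, which was not well above background on any siControl array of day 0, the rise was at least 10.7-fold, or 3.425 on the log2 scale. Such a bound sets the mean of the bright group against the lowest signal well above background on each array of the dim group. Every such bound here holds for the main processing alone, as several rises after normexp were smaller. The probe A_66_P120667 rose at least 2-fold in siControl and at least 2.43-fold in siBach1 cells by the same measure. After normexp the log2 rises in siControl and siBach1 cells were 1.78 and 1.90 on A_52_P70231 and 0.70 and 0.68 on A_66_P120667.

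Adamts15 read -5.69, -4.24 and -4.22 at day 0 and -0.30, -0.09 and -0.05 at day 2 in siControl cells. It passed as higher (adjusted p = 8.3e-06), but 1 of 3 day 0 arrays was well above background, so that no exact fold is given. In siBach1 cells it read -3.88, -3.62 and -5.08 and then -1.18, -1.41 and -1.24, a rise of 2.92 (SE 0.42, adjusted p = 0.00018). At day 2 the siBach1 arrays were all below the siControl arrays, but that difference (-1.12, adjusted p = 0.12) did not pass. Nor did the difference between the rises (adjusted p = 0.14), which has no exact value because the siControl rise has none. Adamts16 was not well above background on any day 0 array and was on every day 2 array, a rise of at least 4.2-fold in siControl and at least 4.54-fold in siBach1 cells. Adamts12 passed as higher in siControl cells (adjusted p = 8.7e-06), where 1 of 3 day 0 arrays was well above background so that no exact fold is given, and rose at least 6.05-fold in siBach1 cells. After normexp the log2 rises in siControl and siBach1 cells were 2.55 and 1.29 for Adamts15, 1.18 and 1.05 for Adamts16 and 1.28 and 1.31 for Adamts12, all of which passed. Adamts4 rose on all 3 probes, by 1.45 to 1.92 in siControl and 2.12 to 2.74 in siBach1 cells, where the largest of these fell to 1.71 after normexp. Adamts1 rose by 1.04 (adjusted p = 0.00012) and 1.50 (adjusted p = 8.6e-06). Adamts6 rose on probe A_51_P367673 in siControl cells (adjusted p = 0.0027, with 1 of 3 day 0 arrays well above background) and at least 1.81-fold in siBach1 cells. On A_66_P114705 it rose by 0.87 in siControl cells. That probe also passed as higher in siBach1 cells (adjusted p = 3.7e-05), where 1 of 3 day 0 arrays was well above background, so that no exact fold is given. On A_52_P604149 it rose by 1.28 in siBach1 cells and gave 0.44 (adjusted p = 0.13) in siControl cells. After normexp its values in siBach1 cells were 0.29, 0.35 and 0.30 on these probes, and the first did not pass (adjusted p = 0.096).

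The procollagen N-proteinases rose as well. Adamts14 went from 3.16, 3.18 and 3.16 to 4.66, 4.82 and 4.76 on probe A_55_P1978316 in siControl cells, a rise of 1.58 (SE 0.08, adjusted p = 1.5e-07), and rose by 1.64 in siBach1 cells. Adamts2 rose by 2.25 in siControl and 2.69 in siBach1 cells on probe A_51_P227222 (adjusted p = 1.1e-06 and 3.7e-07), and by 1.04 and 2.43 on A_52_P184042 (0.57 and 1.08 after normexp), while probe A_52_P510592 gave 1.56 and 1.49 and did not pass (adjusted p = 0.058 and 0.067). Adamts7 rose by 1.24 (adjusted p = 8.4e-06) and 1.61 (adjusted p = 1.5e-06). Adamts10, a fibrillin-binding member, had 2 tested probes that moved in opposite directions. Probe A_51_P175069 rose by 0.54 (adjusted p = 0.0086) and A_55_P2729693 fell, with a change of -0.88 (adjusted p = 6e-05) in siControl cells, and the pair split in the same way in siBach1 cells (0.53 and -0.65). The rise of A_51_P175069 in siBach1 cells, where 1 of 3 day 0 arrays was well above background, was lost with median scaling (adjusted p = 0.058), with another prior for the spread, and after normexp (0.08, adjusted p = 0.47).

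**Figure D4:**
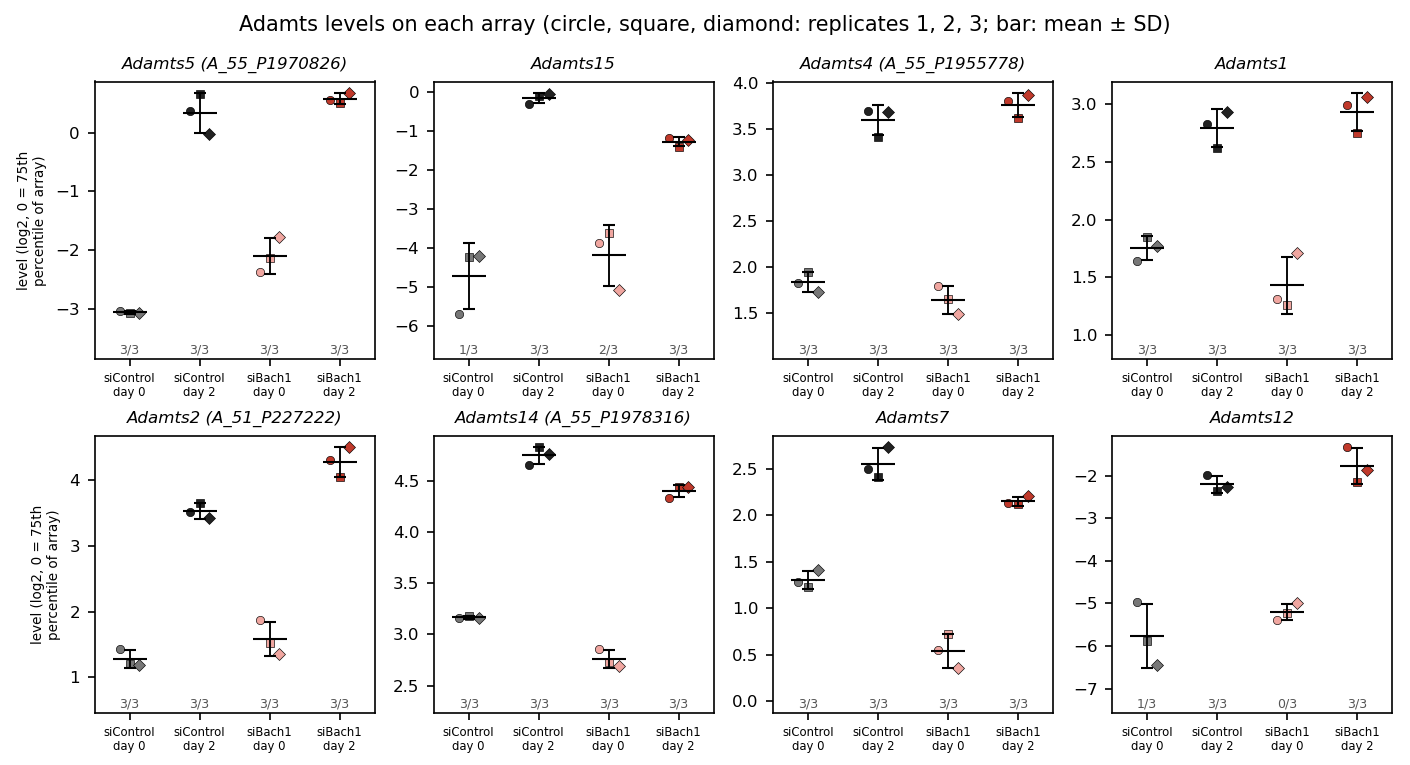
Levels of 8 Adamts probes (y axes, log2 of the processed signal, 0 at the 75th percentile of the array, each panel on its own scale) in the 4 conditions; symbols are replicates 1, 2 and 3, bars give mean ± SD, and the fractions count arrays well above background. Every probe shown is higher on all day 2 arrays than on all day 0 arrays of the same siRNA, and Adamts15 is lower on the siBach1 than on the siControl arrays of day 2.

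Of the 13 Mmp probes, 7 rose and 1 fell in each cell group. Mmp2 went from 0.05, -0.34 and 0.06 to 2.21, 2.10 and 2.00 in siControl cells, a rise of 2.18 (SE 0.19, adjusted p = 5.3e-06), or 4.53-fold, and rose by 2.59 in siBach1 cells. Mmp15 rose by 2.58 (SE 0.10, adjusted p = 3e-08) in siControl cells and by 1.32 (adjusted p = 1.8e-06) in siBach1 cells, where it started higher. Mmp11 (stromelysin-3) rose by 0.82 and 0.77, and the membrane enzymes Mmp16 and Mmp23 rose by 0.93 and 1.46 and by 0.94 and 1.15, or by 0.59 and 0.72 and by 0.51 and 0.53 after normexp. Mmp14 gave 0.66 (adjusted p = 0.13) and 0.60 (adjusted p = 0.16), and passed in both groups without replicate 1 of siBach1 day 0 (adjusted p = 0.00015 and 1.4e-05). That is the array singled out above by its own reading. Mmp19 rose by 1.42 and 2.01 on probe A_55_P2495403, and its dim second probe gave -0.50 and 0.39 and did not pass. Mmp17 (-0.15 and -0.28) and Mmp28 (0.07 and -0.11) did not pass.

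The stromelysins Mmp3 and Mmp10 went opposite ways. Mmp10 passed the filter only through the day 0 arrays and Mmp3 only through siBach1 day 2, so the filter favoured these directions. Mmp10 read -2.39, -2.20 and -2.22 at day 0 and -4.90, -4.95 and -4.90 at day 2 in siControl cells and fell (adjusted p = 1.3e-07), but 1 of 3 day 2 arrays was well above background, so that no exact change is given. It fell by at least 1.97-fold in siBach1 cells, where no day 2 array was well above background. After normexp the changes were -0.81 and -0.48. Mmp3 was not well above background on any day 0 array, and was on 2 of 3 siControl and 3 of 3 siBach1 arrays of day 2. Its rise was at least 1.12-fold in siControl and at least 3.62-fold in siBach1 cells, and the log2 rise was 0.69 and 1.01 after normexp. On the log2 scale the siBach1 bounds were 0.98 for Mmp10 and 1.855 for Mmp3. Both exceed the changes after normexp, so they hold for the main processing alone. Both genes belong to a run of 10 Mmp genes that follow each other without another protein-coding gene between them on mouse chromosome 9, of which only Mmp3, Mmp8 and Mmp10 had a tested probe. The Mmp8 probe (neutrophil collagenase) gave 0.54 and 0.32 and did not pass.

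The Timp genes moved less, and none by 2-fold. Timp2, on probe A_52_P540219, went from 7.76, 7.61 and 7.67 to 8.88, 8.66 and 8.40 in siControl cells, a rise of 0.97 (SE 0.13, adjusted p = 8.7e-05), and rose by 0.70 in siBach1 cells. Its probe A_65_P12392 rose by 0.64 and 0.40, the second of which did not pass with median scaling (adjusted p = 0.32). Timp1 fell from 7.04, 6.99 and 7.23 to 6.61, 6.64 and 6.86 in siControl cells, a change of -0.38 (SE 0.13, adjusted p = 0.027), and fell by 0.68 in siBach1 cells (adjusted p = 0.0011). The siControl call was lost without replicate 1 or 3 of day 0 or replicate 1 or 2 of day 2. Timp3 fell by 0.51 (adjusted p = 0.0069) in siControl cells on probe A_51_P463765, and gave 0.29 (adjusted p = 0.084) in siBach1 cells, where it started lower. Probe A_55_P2865447 gave -0.33 (adjusted p = 0.25) and 0.30 (adjusted p = 0.3). With the replicate number as a block, both probes rose in siBach1 cells (adjusted p = 0.028 and 0.016) and A_55_P2865447 fell in siControl cells (adjusted p = 0.01). Timp4 was well above background on 2 or 3 arrays of each condition and did not pass in any comparison.

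The Adam genes divided. Adam19 rose from 2.53, 2.37 and 2.46 to 4.20, 4.28 and 4.13 in siControl cells, by 1.75 (SE 0.10, adjusted p = 2.6e-07), and by 1.91 in siBach1 cells, so that it stayed below the siControl level at both days. Adam8 fell from 3.45, 3.29 and 3.19 to 1.33, 1.58 and 1.72 in siControl cells, by 1.77 on the log2 scale (adjusted p = 1e-06), and by 1.05 in siBach1 cells. Of the 6 tested probes of leukocyte and macrophage markers, 3 fell and 2 rose in siControl cells, and 3 fell and 1 rose in siBach1 cells. The part of those markers was not tested. Adam9 rose by 0.80 (adjusted p = 0.00073) in siControl cells and gave -0.09 (adjusted p = 0.63) in siBach1 cells. Adam10 rose by 0.44 and 0.43 on probe A_55_P1967216 and by 0.36 and 0.37 on A_66_P124299, and with each array scaled to its median neither probe passed. The calls of A_66_P124299 were also lost without any 1 array of siControl day 0 or replicate 1 of siControl day 2, and without replicate 2 of siBach1 day 0 or replicate 1 or 3 of siBach1 day 2.

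The 3 Adam15 probes gave -0.23, -0.13 and -0.02 in siControl cells and did not pass, although the first did with the replicate number as a block (adjusted p = 0.012). They fell by 0.64, 0.55 and 0.57 in siBach1 cells (adjusted p from 0.00043 to 0.0017), where the last did not pass under quantile scaling (adjusted p = 0.053). The test of the difference did not pass for any of them (adjusted p from 0.088 to 0.15), but did with the replicate number as a block (adjusted p from 0.018 to 0.032). Adam12 (meltrin alpha), known for its part in myoblast fusion, gave -0.17 and -0.24 with differentiation and 0.78 and 0.71 with silencing at day 0 and day 2, and did not pass in any of these comparisons. The 3 Adam17 probes gave -0.18 to 0.24 with differentiation and did not pass. Of the Adam genes of testis and nervous tissue, Adam1a fell in both cell groups (-0.83 and -0.71), Adam23 fell in siControl cells (-0.63, adjusted p = 0.047), and Adam32 fell (-0.82) and Adam5 rose (0.97, on 1 of 2 probes) in siBach1 cells. The Adam5 probe passed the filter only through the siBach1 arrays of day 2. It was well above background on 1 of 3 siBach1 arrays of day 0, and the Adam23 probe on 1 of 3 siControl arrays of day 2. The values of Adam23 and Adam5 are thus not exact changes. After normexp the changes of Adam32 and Adam5 were -0.24 and 0.16 and did not pass (adjusted p = 0.16 for both). Adam11, Adam26b, Adam28 and Adam33 did not pass in any comparison. The siBach1 calls of Adam1a and Adam32 were lost without replicate 1 or 2 of day 2 or replicate 3 of day 0, and that of Adam32 also without replicate 2 of day 0. The fall of Adam23 was lost without any 1 siControl array other than replicate 2 of day 2, and without replicate 1 or 3 of siBach1 day 0, and turned to 0.06 (adjusted p = 0.59) after normexp background correction.

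Fibroblast markers rose together with these genes. All 6 tested probes of Pdgfra, Dcn, Ly6a and Col1a1 rose in siControl and 5 of 6 in siBach1 cells, and the summed linear level of the list went from 59.7 to 64.6 at day 0 to 240 to 269 at day 2 of siControl cells and from 49.2 to 60.7 to 235 to 259 in siBach1 cells. Their part in the rise of the Adamts and Mmp genes was not tested.

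A wider list of 40 genes that activate, regulate or work beside these enzymes had 30 genes with 46 tested probes. In siControl cells 25 of these probes rose and 7 fell with differentiation (54.3% and 15.2%, against 24.6% and 28.7% of all tested probes), and in siBach1 cells 21 rose and 7 fell (45.7% and 15.2%, against 23.8% and 32.3%). The Adamts-like proteins, which lack the protease domain, rose on 8 of 9 probes in each cell group. The filter favoured a rise in those that passed it only through day 2, the Adamtsl2 probe among them. The 5 probes seen above background on every array all rose in both cell groups. In siControl cells the rise was at least 7.21-fold for Adamtsl2. It was 2.28 on the log2 scale (adjusted p = 2.1e-07) for Adamtsl1 on probe A_55_P2743927. The serine protease Htra3 rose by 2.08 on probe A_51_P106538. Among the plasminogen genes, the inhibitor Serpinb2 fell by at least 28.5-fold and was not well above background on any day 2 array, and the urokinase receptor Plaur had a log2 change of -2.32, while the activators Plau (0.66 and 0.67) and Plat (0.78) rose. Pcolce2, an enhancer of procollagen C-proteinase, fell by 2.02, and the tetraspanin Tspan5 fell by 0.97 (adjusted p = 4.2e-05).

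With silencing, 6 of the 46 probes were higher and 3 lower at day 0, and 6 were higher and 2 lower at day 2. The shares at day 0 were 13% and 6.52%, against 8.8% and 8.32% of all tested probes, and those at day 2 were 13% and 4.35%, against 5.75% and 6.26%. Reck, a membrane-anchored inhibitor of several Mmp and Adam proteins, was lower at day 0 (-0.53, adjusted p = 0.011), as were Htra3 on probe A_51_P106538 (-1.16, adjusted p = 0.00024) and Pcolce2 (-0.52, adjusted p = 0.0033). Higher at day 0 were Tspan14, a tetraspanin that escorts Adam10 (0.44, adjusted p = 0.0028), Adamtsl1 on probe A_55_P2743927 (0.63), Ctsd (0.52), Ctsb (0.36) and both probes of Htra1 (0.39 and 0.28). At day 2, Tspan15, another such tetraspanin, was lower on 1 of 3 probes (-0.60, adjusted p = 0.018), and Adamtsl2 was lower (-1.68, adjusted p = 0.042). Serpinb2 passed as higher at day 2 (adjusted p = 0.0062) with no array of that day well above background, so that no fold is given. Also higher at day 2 were Adamtsl1 on 2 of 4 probes (1.13 and 0.63), Htra3 on probe A_52_P217437 (0.86), Htra1 on A_66_P138355 (0.46) and Spock2 on A_52_P385801 (0.50). Htra3 differed by probe, as A_52_P217437 gave 0.08 at day 0 and A_51_P106538 gave -0.10 at day 2, neither of which passed. Of these silencing calls, those of Ctsd, Ctsb and Htra1 at day 0 and of Adamtsl2, Tspan15, Spock2 and Adamtsl1 (probe A_55_P2016069) at day 2 were each lost when 1 or another single array was left out. Those of Ctsd, Ctsb, Htra1 and Spock2 were also lost with median scaling. After normexp those of Reck (-0.21, adjusted p = 0.091), Serpinb2 (0.07, adjusted p = 0.76) and Spock2 (0.15, adjusted p = 0.4) were lost.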

How the data were processed

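RNA from 12 C2C12 samples was hybridised to 1-colour mouse Agilent arrays, 3 per condition. Per the file headers, Feature Extraction 10.7.3.1 gave the deposited processed signal intensity, with background subtracted, while the submitters' processing notes name version 9.1. The authors also deposited a table of log2 values, each relative to the 75th percentile of its array and the median of its probe, which served as an alternative. Here control spots and outlier spots were left out, spots of a probe were averaged, and log2 intensity was taken relative to the array's 75th percentile, a signal of 326 to 534. Probes well above background on all 3 arrays of a condition were tested (29664 of 56605). All 4 conditions were fitted together with limma 3.58.1 in R 4.3.3, with Benjamini-Hochberg adjustment over all tested probes and a threshold of 0.05. The number of arrays limits the precision.

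Samples of the same replicate number deviated together (r of residuals 0.142 to 0.595 over 18 pairs, against -0.442 to 0.264 for other pairs). All negative values were between slides, and pairs of different number within slide 1 gave 0.1 to 0.264. The ranges overlap there, so the residuals do not show that the numbers pair the samples. Replicate 3 and slide 2 cannot be told apart. The main fit held no block, and a fit with the replicate as a block was an alternative. The fit and scripts were tested on simulated data. Named genes were the members past the threshold at 2-fold or with the lowest p in each silencing comparison, the largest rises and falls with differentiation, and a fixed group of well-studied members. Others were named to account for every tested gene. Members, gene lists and tests were chosen with earlier results of these data known. RefSeq accessions were listed for 125 member probes, of which 119 were found among the RefSeq genes, each under the same symbol as on the array. Promoter windows came from RefSeq (GRCm38.p6), and no coordinates of the files' own build were used. One gene of the wider list of related genes is not reported here and was left out of its counts.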

Additional observations from a re-analysis of the deposited data

Results flagged for a closer look

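The effect of Bach1 silencing differed between day 0 and day 2 for 6 member probes by the limma test of the difference itself. The effect at day 2 minus that at day 0 was -1.26 for Mmp15 and -0.89 for Adam9, both raised at day 0. It was 1.05 for Mmp10 and 0.80 for Timp3 (probe A_51_P463765), both lowered at day 0. For Mmp10 no siBach1 and 1 of 3 siControl arrays were well above background at day 2, so that its value is not a measured difference, and it was 0.33 and did not pass after normexp background correction (adjusted p = 0.12). It was 1.39 for Adamts2 (probe A_52_P184042) and 0.72 for Adam8 (probe A_55_P2025765), whose effects were larger at day 2. The other tested probes of Timp3, Adamts2 and Adam8 did not pass. Each group held 3 arrays, too few for a search for single arrays that stand apart.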

How the results depend on the processing

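In all, 27 settings were tried, of which 12 left out 1 array and those by slide were chosen after seeing the data. Of 117 calls on named members, 77 held under every setting and 40 were lost under at least 1. The fall of Adam23 in siControl cells turned to 0.064 after normexp background correction. None of the 117 had the opposite sign on slide 2, whose arrays were part of the fit that made the calls. After normexp 48 of the 117 were smaller by over 1.5 times, 34 of them on probes not above background on every array, and 13 were lost. Median scaling lost 12, quantile scaling 9 and slide 1 alone 20. The cause of each shift was not tested, beyond fewer probes or arrays where the setting itself removes them. Counts are given as higher and lower.

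At day 0 (4 and 11), normexp gave 8 higher, the methods' t-test after Benjamini-Hochberg 7 lower, and a 2-fold minimum 2 and 2. At day 2 (8 and 7), higher counts were 4 with no filter, 5 on probes seen on all 12 arrays, 4 with only the arrays compared, 2 by the methods' t-test, 4 with 1 probe per gene, 3 on slide 1 and 4 at 2-fold, and lower counts were 4 with quantile scaling, 3 with no filter, 4 with only the arrays compared, 3 by the methods' t-test and 0 at 2-fold. With differentiation, siControl cells (31 and 8) had 20 higher with 1 probe per gene, 5 lower by the methods' t-test and 3 lower at 2-fold, and siBach1 cells (32 and 10) had 21 higher on probes seen on all 12 arrays, 21 with 1 probe per gene and 3 lower at 2-fold. For the difference between days (4 and 2), median scaling gave 1 and 1, normexp 2 and 4, no filter 0 and 1, a 2-fold minimum 2 and 1, the unadjusted t-test 8 and 7, slide 1 alone 0 and 0, quantile scaling 1 lower, probes seen on all 12 arrays 2 higher, the slide as a block 6 lower and the replicate block 7 and 5. The replicate block lost none of the 117 calls, added 10 on named members (all of Timp1, Timp2, Timp3 or Adam15) and moved no other count by over 1.5 times.

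Leaving out 1 array gave 4 to 5 higher and 8 to 12 lower at day 0, 4 to 8 and 2 to 8 at day 2, 30 to 35 and 6 to 8 with differentiation of siControl cells, 31 to 33 and 8 to 11 of siBach1 cells, and 1 to 4 and 1 to 2 for the difference. The higher count at day 2 moved by over 1.5 times without replicate 1 or 3 of either day 2 group, and the lower count without replicate 1 or 2 of siControl day 0, any siControl array of day 2, or replicate 1 or 2 of siBach1 day 2. The counts of the difference moved so without nearly any array. Median scaling moved the share of higher calls among all probes from 51.4% to 33.3% at day 0, 47.9% to 23.7% at day 2, 46.1% to 32.4% in siControl and 42.5% to 27.7% in siBach1 differentiation. The Adam median in siControl cells, -0.07, was 0.13 under normexp, and the Timp median, 0.05, was -0.14 under median scaling and -0.03 under normexp.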
